A study of Canis lupus familiaris with 34 samples.

Results

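EPCAM and ESRP1, a pair of genes that mark epithelial cells, were followed across 34 RNA sequencing libraries of dog osteosarcoma, a malignant tumour of bone-forming cells. They are 2 of the 23988 rows of the deposited expression table, chosen by their high measured levels in the osteosarcoma cell lines relative to primary tumours. The genes that run with them were then sought among the primary tumours. The libraries comprise the osteosarcoma lines OSCA.8 and OSCA.78, 1 metastasis (DOS.6M), 30 libraries of primary bone tumours and 1 culture of osteoblasts (CNOB), the cells that lay down bone matrix. All 34 are labelled Golden Retriever, although the series' design text also names Rottweilers, and no treatment, age or allele is given for any group. The lines came from earlier primary tumours, per that text, which does not say which ones. OSCA.8, OSCA.78 and DOS.6M share their numbers with the primary tumours DOS.8, DOS.78 and DOS.6. The libraries DOS.46 and DOS.46.2 carry 1 number and were averaged, so that 29 primary tumours were compared.

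EPCAM encodes a cell surface protein that holds epithelial cells together and lies beside claudins in their junctions. Proteases cut it, and the freed inner piece can enter the nucleus with partners such as FHL2. ESRP1 encodes an RNA-binding protein that directs the splicing of many transcripts to their epithelial forms, and factors such as ZEB1, ZEB2 and SNAI1 repress it when epithelial cells turn mesenchymal. Bone cells are mesenchymal, and both genes are known chiefly from epithelia and carcinomas.

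The unit was taken to be FPKM (RNA fragments per kilobase of a transcript, relative to library size), and differences are on the log2(FPKM + 1) scale, which understates the change of low genes. Depth in reads is unknown. Between 15328 and 17711 genes per library had a value above 0. The tumour libraries carried the markers of bone, with at least 2870 FPKM of the collagen gene COL1A2 and at least 48.6 FPKM of bone sialoprotein IBSP in every tumour. Some tumour libraries were unusually alike. Deviations from the tumour mean over 15165 genes correlated at r = 0.844 between DOS.32 and DOS.100, above the r = 0.729 of the repeat pair DOS.46 and DOS.46.2, and at r = 0.671 between DOS.110 and DOS.115, against a median of -0.04 over 435 pairs. Results that could turn on these pairs are given with and without them. Nothing states that the samples came from separate cultures or animals, so p-values measure only how far these samples vary, part of which may be technical.

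EPCAM stood at 7.55 FPKM in OSCA.8 and 48.4 FPKM in OSCA.78, at 6.49 in the metastasis and at 0.190 in the osteoblast culture, and across the 29 primary tumours its lowest value was 0.0560 (DOS.28), its median 0.906 and its highest 2.76 (DOS.111). Both lines and the metastasis lay above every primary tumour, and the osteoblast culture lay near the bottom, with 3 tumours under it. OSCA.78 held 17.5 times and OSCA.8 held 2.73 times the EPCAM level of the highest tumour. The tumours averaged 1.11 ± 0.842 FPKM (SD, n = 29), and 12 of them reached 1 FPKM. The mean of the lines exceeded that of the tumours by 3.39 on the log2 scale, a figure given without a test because the gene was chosen for it.

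ESRP1 stood at 3.90 FPKM in OSCA.8 and 16.3 FPKM in OSCA.78, at 5.03 in the metastasis and at 0.0261 in the osteoblast culture, and the tumours had a lowest value of 0.0147 (DOS.57), a median of 0.529 and a highest of 9.02 (DOS.11). Here the groups overlapped. OSCA.78 held 1.80 times the level of the highest tumour, whereas 4 tumours lay above OSCA.8 and 2 above the metastasis. Only 1 tumour lay under the osteoblast culture. The tumours averaged 1.48 ± 2.16 FPKM (SD, n = 29) and 10 reached 1 FPKM. The lines exceeded them by 2.25 on the log2 scale, again a description.

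The lines differed from each other, as OSCA.78 held 6.41 times the EPCAM and 4.17 times the ESRP1 of OSCA.8. In the order of EPCAM levels OSCA.8 came next above the metastasis, at log2 values of 3.10 and 2.91, closer than the SD of 0.57 among tumours. For ESRP1 the metastasis came next above OSCA.8, at 2.59 and 2.29, again closer than the SD of 0.95 among tumours. Ranked by mean log2 level in the tumours, EPCAM stood at percentile 14.4 and ESRP1 at percentile 14.2 of the 15165 genes, so both are scarce transcripts in the tumours. In bulk tissue a low level from few cells and a low level in all cells cannot be told apart.

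**Figure D1:**
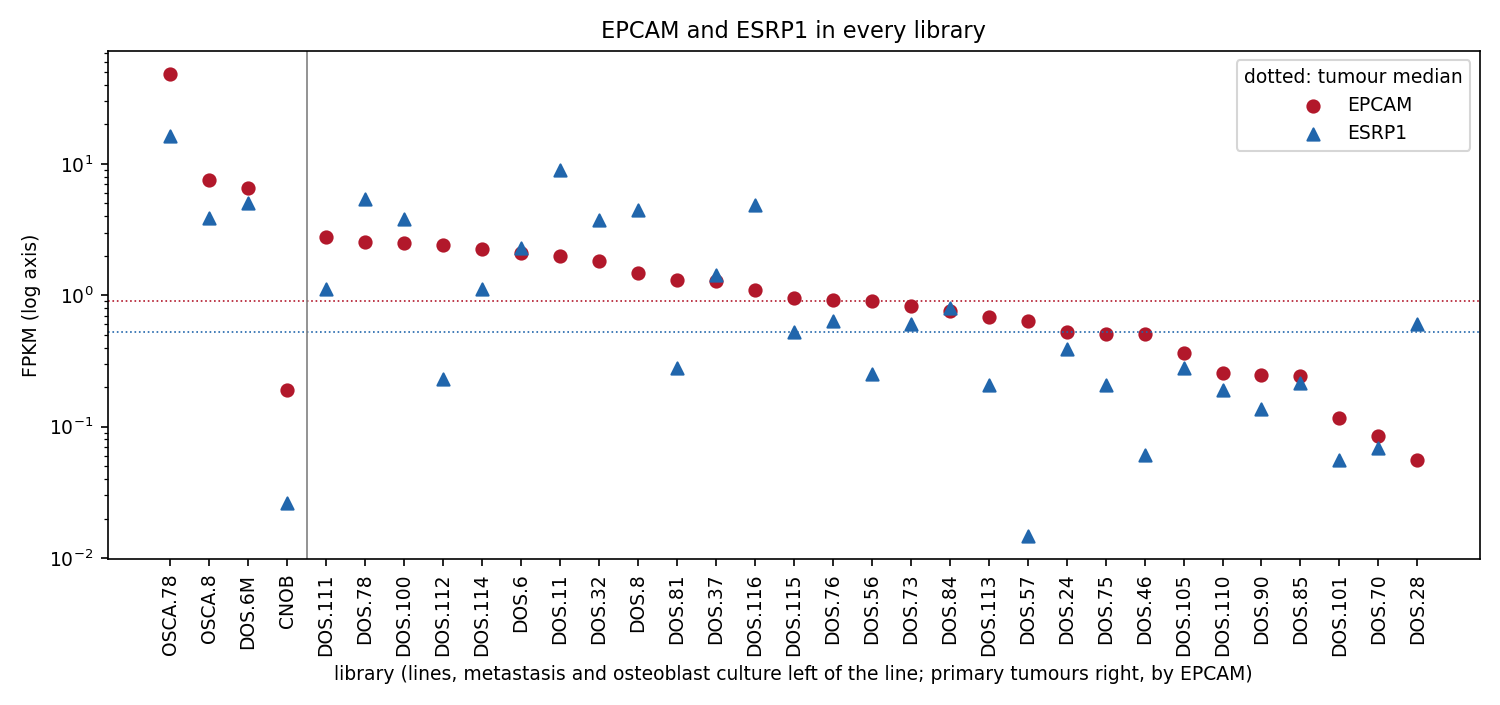
FPKM (log axis) of EPCAM (circles) and ESRP1 (triangles) per library, with lines, metastasis and osteoblast culture left of the vertical line, the 29 primary tumours right of it in order of EPCAM, and dotted lines at the tumour medians of 0.906 and 0.529 FPKM. OSCA.78, OSCA.8 and DOS.6M lie above every tumour for EPCAM, while DOS.11 with 9.02 FPKM of ESRP1 lies above OSCA.8 and DOS.6M.

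Set beside the tumours that share their numbers, the lines gave unequal pictures. OSCA.78 held 18.9 times the EPCAM and 3.04 times the ESRP1 of DOS.78, which was itself second among tumours for both genes at 2.56 and 5.36 FPKM. OSCA.8 held 5.09 times the EPCAM of DOS.8 (1.48 FPKM) and 0.883 times its ESRP1 (4.42 FPKM). The metastasis held 3.10 times the EPCAM and 2.18 times the ESRP1 of DOS.6 (2.10 and 2.31 FPKM). Each of these is a single library with no replicate.

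Within the primary tumours, a comparison that the choice of the genes did not use, EPCAM and ESRP1 rose and fell together. Spearman's rho of log2(FPKM + 1) was 0.724 (permutation p = 3.0e-05, two-sided, n = 29) and Pearson's r was 0.668 (permutation p = 1.2e-04). Without DOS.111 and DOS.78, the 2 tumours farthest from the EPCAM median, rho was 0.691 and r was 0.657. Leaving out each tumour in turn gave rho between 0.700 (without DOS.78) and 0.781 (without DOS.112). With DOS.32 and DOS.100 counted as 1 tumour rho was 0.707, and with DOS.110 and DOS.115 merged as well it was 0.683. No sequencing batch is given in the labels.

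Both genes were at 1 FPKM or more in 10 tumours and under 1 FPKM in 17. EPCAM alone reached 1 FPKM in DOS.112, at 2.40 FPKM against 0.229 FPKM of ESRP1, and in DOS.81, at 1.31 against 0.279. No tumour had ESRP1 alone at that level. Of the 10 tumours highest in EPCAM, 8 were among the 10 highest in ESRP1, and 7 tumours were among the lowest 10 for both. The extremes at the low end did not coincide. DOS.28, lowest in EPCAM, held 0.604 FPKM of ESRP1, above its median, and DOS.57, lowest in ESRP1, held 0.642 FPKM of EPCAM.

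The spread was wider for ESRP1 than for EPCAM, with an SD of 0.95 against 0.57 on the log2 scale. Per kilobase, EPCAM exceeded ESRP1 in 19 tumours and ESRP1 exceeded EPCAM in 10. The repeat libraries were close, with 0.477 and 0.532 FPKM of EPCAM and 0.0486 and 0.0734 FPKM of ESRP1 in DOS.46 and DOS.46.2. DOS.32 and DOS.100 held 1.83 and 2.51 FPKM of EPCAM and 3.74 and 3.84 FPKM of ESRP1.

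**Figure D2:**
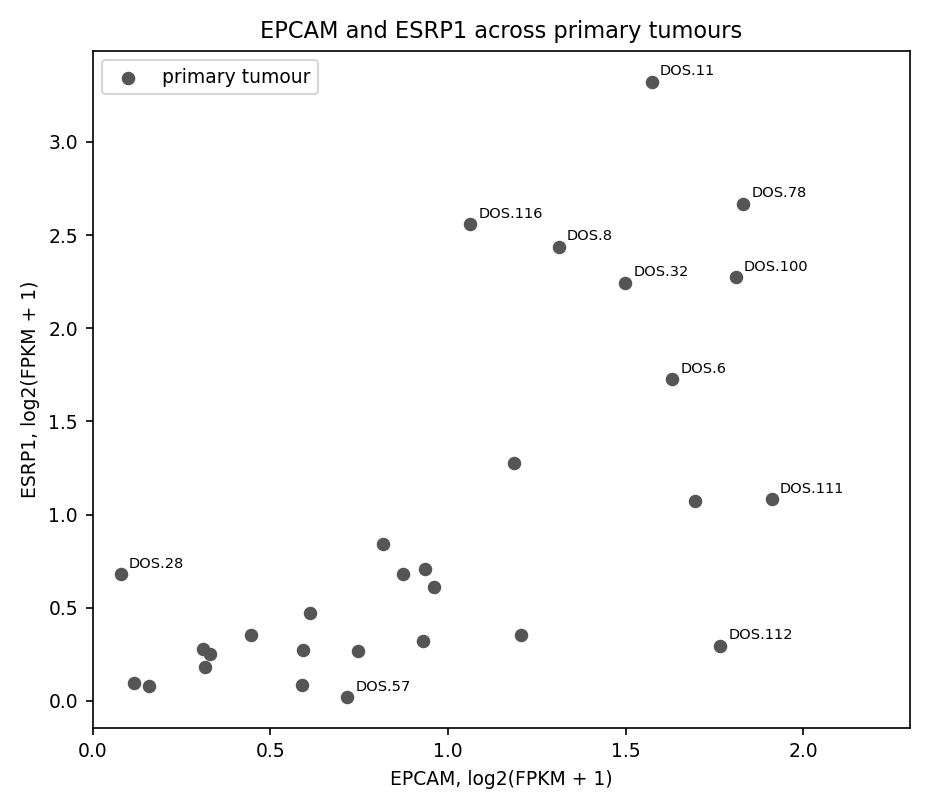
Each point is 1 of the 29 primary tumours, with EPCAM on the horizontal and ESRP1 on the vertical axis, both as log2(FPKM + 1). The points climb together (rho 0.724), while DOS.112 at the lower right has EPCAM with little ESRP1.

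Tumours in which more genes were detected had more of both. The number of genes above 0 correlated with EPCAM at rho = 0.482 (permutation p adjusted over 8 pairs = 0.0340, r = 0.471, adjusted p = 0.0396) and with ESRP1 at rho = 0.485 (permutation p, adjusted, 0.0340, r = 0.476, adjusted p = 0.0396). Without the 2 farthest tumours r was 0.433 for EPCAM and 0.407 for ESRP1. Given the number of genes above 0, the partial rank correlation of EPCAM with ESRP1 was 0.639. The summed FPKM, the share of the 10 most abundant genes and the relative FPKM of 1 fragment gave rho between -0.220 and 0.0532 with the genes, with adjusted permutation p of 0.673 or more.

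The other genes were then ranked by Spearman's rho with each gene across the tumours, among the 13949 at 1 FPKM or more in at least 5 of them. Since the ranking chose the genes, their rho carries no p. ESRP1 took place 8 of 13948 for EPCAM, and EPCAM took place 9 for ESRP1. The median rho over all genes was -0.01 for EPCAM and -0.003 for ESRP1, and the top 1% began at 0.553 and 0.559. The values next to the limit were close, as 10th place for EPCAM went to GRB14 at 0.712 with ISL1 next at 0.711, and 10th place for ESRP1 to L1CAM at 0.713 with SLAIN1 next at 0.709.

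BCHE, the gene of butyrylcholinesterase, an enzyme that splits choline esters, had the highest rho with EPCAM (0.804) and one of 0.735 with ESRP1. Its level spanned 0.0518 to 147 FPKM across tumours with a median of 1.94, highest in DOS.111 and at 131 FPKM in DOS.11, the tumours that also led in EPCAM and in ESRP1. It stood at 6.52 FPKM in OSCA.8, 10.1 in OSCA.78, 118 in the metastasis and 0.658 in the osteoblast culture. The lines thus lay inside the tumour range (difference 0.87 ± 1.60 SE, limma adjusted p = 0.746), although EPCAM lay far above it there.

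SPAG6, which encodes a protein of the axoneme of cilia and sperm tails, had the highest rho with ESRP1 (0.809) and 0.717 with EPCAM. Its levels were 6.45 FPKM in OSCA.8, 2.79 in OSCA.78, 1.08 in the metastasis and 0 in the osteoblast culture, and in tumours 0.00621 to 5.25 with a median of 0.778. VWDE, a protein with von Willebrand factor D and EGF domains, had a rho of 0.724 with EPCAM and 0.725 with ESRP1. KIAA1324L had 0.693 and 0.760, and the homeobox gene ISL1 0.711 and 0.693. These 5 genes had the highest mean of both correlations, with ISL1 at 0.7025 and EPHX2 next at 0.7022.

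KIAA1324L and VWDE were highest by far in the alike libraries DOS.32 and DOS.100, at 19.5 and 18.4 FPKM for KIAA1324L and at 8.77 and 7.88 FPKM for VWDE. With that pair counted as 1 tumour the same 5 genes led both correlations. ISL1 was highest in DOS.116 at 3.94 FPKM and had a tumour median of 0.189.

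The genes nearest to EPCAM also included ANKS1B, a scaffold protein of synapses (rho 0.734), CLDN15, a claudin of tight junctions (0.734), the zinc finger gene ZNF804A (0.732), EPHX2, the soluble epoxide hydrolase (0.721), WBSCR17, of the family that starts O-linked glycosylation (0.713), and GRB14, an adaptor that binds the insulin receptor (0.712). CLDN15 was the least shared of these, with a rho of 0.465 with ESRP1 and its highest value, 13.2 FPKM, in DOS.112, the tumour with EPCAM and little ESRP1. ZNF804A had a tumour median of 0.0565 FPKM and reached 1 FPKM in 6 tumours, led by DOS.111 at 9.31 FPKM.

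The 10 nearest to ESRP1 were completed by LUZP4, a leucine zipper protein (rho 0.788), the neuronal membrane protein SLITRK5 (0.780), the helix-loop-helix gene TCF24 (0.727), the zinc finger gene PLAG1 (0.722), the interleukin receptor IL20RA (0.721) and the adhesion molecule L1CAM (0.713). LUZP4 and SLITRK5 were low, with tumour medians of 0.0373 and 0.0697 FPKM. SLITRK5 had a rho of 0.486 with EPCAM, the smallest of these 10. L1CAM, with a tumour median of 3.57 FPKM, reached 61.0 FPKM in OSCA.78, above its tumour maximum of 45.2 (DOS.32), and 8.41 FPKM in OSCA.8.

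Both lists of 10 shared 3 genes, BCHE, SPAG6 and VWDE, or 3 of 10 in each. Of the 17 genes in all, 15 had a rho over 0.5 with both EPCAM and ESRP1. Their levels in the metastasis lay above the tumour median for 16 of 17, in OSCA.8 for 14, in OSCA.78 for 11 and in the osteoblast culture for 7. The share of all genes above it in each library was not computed, so these counts are a description. DOS.6, DOS.8 and DOS.78, which share numbers with the metastasis and the lines, took part in the ranking. In the metastasis WBSCR17 (12.1 FPKM) and TCF24 (35.5 FPKM) lay above every primary tumour. Over the 11132 genes with a symbol past the same filter in tumours, 4.67% did so and 3.73% lay below every tumour, among them IGFBP6, one of the genes that ran against ESRP1.

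**Figure D3:**
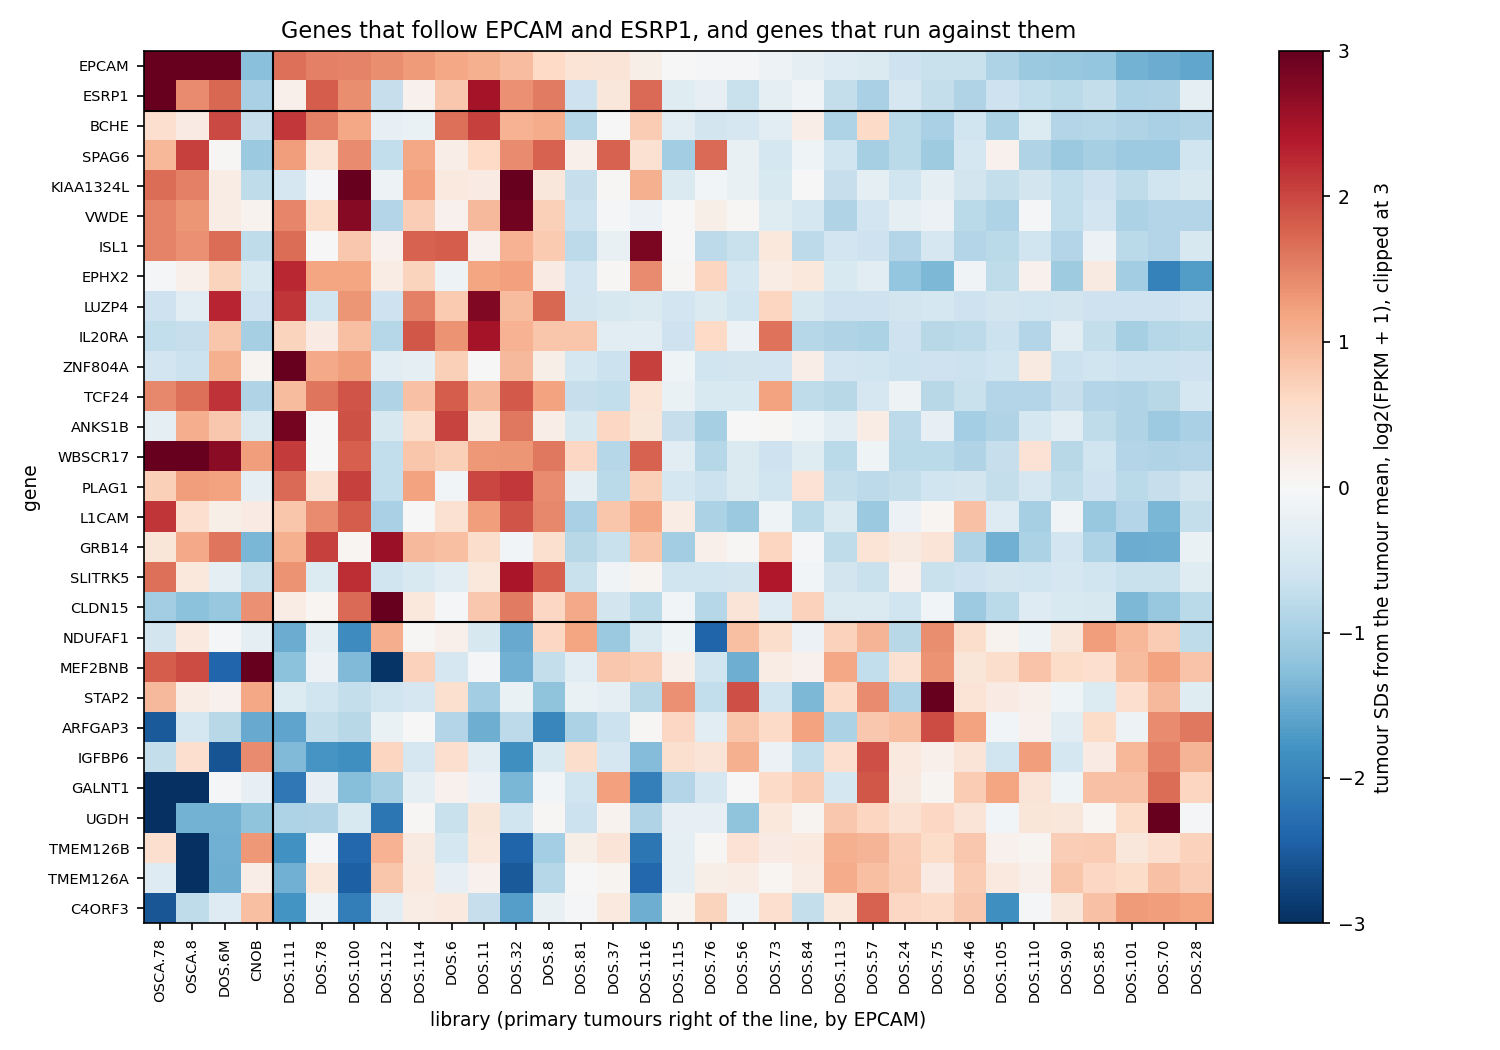
Rows are EPCAM and ESRP1, genes with the highest rho with either or both, and the genes with the lowest rho; columns are libraries, with the lines, the metastasis and the osteoblast culture left of the vertical line and the primary tumours right of it in order of EPCAM. Colour gives log2(FPKM + 1) as tumour SDs from the tumour mean, clipped at 3. WBSCR17 is high in both lines and the metastasis, while BCHE is high in DOS.6M, DOS.111 and DOS.11 and moderate in the lines.

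The lines took no part in that ranking, so the genes could be tested there. Of the 17 genes 1 was higher in the lines and 0 were lower (limma, Benjamini-Hochberg over 15165 genes), and over the 11132 genes with the same tumour filter 8.43% were called higher and 17.2% were called in either direction. The median difference of the 17 was 0.87, against -0.01 over all those genes. The called gene, WBSCR17, stood at 26.9 FPKM in OSCA.8 and 16.6 FPKM in OSCA.78, against a tumour median of 0.394 and a highest tumour of 7.49 (difference 3.54 ± 0.70 SE, limma adjusted p = 7.0e-04). Its call held with either line alone (limma adjusted p = 0.0266 and 0.0298).

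TCF24 had the next largest difference, with 18.8 FPKM in OSCA.8 and 14.4 FPKM in OSCA.78, against a tumour median of 0.562 and a highest tumour of 24.96, and did not pass (2.61 ± 1.17 SE, limma adjusted p = 0.122). KIAA1324L held 4.80 and 5.62 FPKM in OSCA.8 and OSCA.78 against a tumour median of 0.471 (1.75 ± 0.75 SE, limma adjusted p = 0.106). It passed with DOS.32 and DOS.100 as 1 tumour (limma adjusted p = 0.0330), which makes the count 2. VWDE, SPAG6 and ISL1 missed the threshold at differences of 1.20, 1.39 and 0.88 (limma adjusted p = 0.161, 0.130 and 0.162). At an unadjusted limma p under 0.05 the count over the 20 places on the lists, where the 3 shared genes count in both, was 7. At that level 4628 of all 15165 genes passed, so the count is a description.

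At the other end of the ranking, the genes that ran against EPCAM were GALNT1, an enzyme that starts O-linked glycosylation (rho -0.689), MEF2BNB (-0.659), ARFGAP3, which acts on the ARF GTPases of the Golgi (-0.658), C4ORF3 (-0.655) and UGDH, which makes the UDP-glucuronic acid of matrix sugars (-0.648). Unlike EPCAM these are abundant, with a tumour median of 79.5 FPKM for GALNT1 and 69.0 for UGDH. MEF2BNB had 53.1 FPKM in OSCA.8 and 50.6 FPKM in OSCA.78, against a highest tumour of 43.4, and did not pass (0.87 ± 0.34 SE, limma adjusted p = 0.0720). ARFGAP3 and C4ORF3 did not pass either, at differences of -0.71 and -1.14 (limma adjusted p = 0.164 and 0.107). GALNT1 fell to 18.6 FPKM in OSCA.8 and 6.87 FPKM in OSCA.78, against a lowest tumour of 30.5 (-2.70 ± 0.46 SE, limma adjusted p = 1.1e-04). UGDH fell to 38.5 FPKM in OSCA.8 and 14.1 FPKM in OSCA.78, against a lowest tumour of 28.3 (-1.50 ± 0.42 SE, limma adjusted p = 0.0142). Without OSCA.78 neither passed (limma adjusted p = 0.0838 at -2.04 for GALNT1 and 0.618 at -0.80 for UGDH).

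Against ESRP1 ran TMEM126B (rho -0.703) and TMEM126A (-0.701), which lie close together in the reference annotation and take part in building mitochondrial complex I, IGFBP6, a protein that binds insulin-like growth factors (-0.675), the signalling adaptor STAP2 (-0.663) and the complex I assembly factor NDUFAF1 (-0.658). TMEM126A had a tumour median of 26.5 FPKM and its lowest value of 0.923 in DOS.32, one of the alike libraries. It stood at 0.117 FPKM in OSCA.8 and 14.1 FPKM in OSCA.78, so that the lines disagreed. TMEM126B did likewise, at 0 and 35.1 FPKM. Of the 10 genes at this end, 2 were lower in the lines and 0 higher (limma), where 8.81% of the 11132 genes were lower.

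Genomic position was looked at because TCF24 and PLAG1 lie on the chromosome of ESRP1 in the reference annotation, which belongs to another assembly and was used for gene order alone. The 101 measured genes of that chromosome had a median rho of 0.162 with ESRP1, and 80 of them were above 0, against 49.3% over all genes. The 20 nearest measured neighbours of ESRP1, 10 on each side, had a median of 0.149 with 13 above 0. For EPCAM the 380 genes of its chromosome had a median of -0.04 and its 20 nearest measured neighbours one of -0.12, with 7 above 0. These correlations come from the same 29 libraries and are a description.

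The question then was whether other epithelial genes were high in the same libraries as EPCAM and ESRP1. Over all 15165 genes 2489 differed between lines and tumours (limma, 16.4%), 1288 higher (8.49%) and 1201 lower (7.92%) in the lines. That balance depends on the scale, with 1121 higher and 1639 lower at a pseudocount of 0.1 FPKM and 958 higher and 1387 lower after upper quartile scaling. Epithelial genes were taken from 5 lists of 104 names, made of partners and proteases of EPCAM, junction proteins, keratins, transcription factors, and trafficking and surface genes. The table held 81 of them. Others, among them CDH1 and several keratins, were not analysed here.

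Of the 50 epithelial genes at 1 FPKM or more in at least 5 tumours, 12 were higher and 1 was lower in the lines and 37 did not pass (limma), while 8.43% of all genes with a symbol under this filter were higher and 8.81% lower. Their median difference was 0.71, against -0.01 over those genes. With a pseudocount of 0.1, upper quartile scaling or quantile normalisation between 11 and 13 were higher and between 0 and 2 lower. Without OSCA.78 the counts were 4 and 0, and without OSCA.8 they were 10 and 0. With the shared title numbers as a replicate block, where only the 2 lines and the tumours of their numbers bear on the difference, 0 were higher and 0 lower and the median difference was 0.46. A further 15 epithelial genes passed only the looser filter of 1 FPKM in any 2 libraries. That filter lets in genes for being high in the lines, so these are given by level alone. The exception is GRHL2, which was named beforehand and was under 1 FPKM in both lines. The counts per list that follow are of genes past the tumour filter, against the same 8.43% and 8.81%.

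Among the partners and proteases of EPCAM, ST14, the protease matriptase that can cut it, had 3.73 FPKM in OSCA.8 and 69.3 FPKM in OSCA.78, against a tumour median of 0.619 and a highest tumour of 6.92 (3.39 ± 0.53 SE, limma adjusted p = 3.3e-05). Its inhibitor SPINT1 had 8.77 and 38.4 FPKM in OSCA.8 and OSCA.78, against a tumour median of 1.79 (2.57 ± 0.54 SE, limma adjusted p = 0.00117). Both were far higher in OSCA.78, as EPCAM was, and neither passed without it (limma adjusted p = 0.221 at 1.45 and 0.326 at 1.57). FHL2, the nuclear partner of the freed EPCAM piece, had 158 FPKM in OSCA.8 and 180 FPKM in OSCA.78, against a tumour median of 15.6 (3.36 ± 0.59 SE, limma adjusted p = 1.7e-04), and 645 FPKM in the osteoblast culture, where EPCAM was low.

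The list of partners and proteases held 12 genes past the filter, of which 3 were higher and 0 lower. PSEN2, a subunit of the protease complex that frees the inner piece of EPCAM, did not pass (-0.10, limma adjusted p = 0.876). The claudin CLDN7, which binds EPCAM in junctions, was at 0 FPKM in both lines and had a tumour median of 0.831 and a highest tumour of 10.1 (-1.10 ± 0.52 SE, limma adjusted p = 0.146). At a pseudocount of 0.1 it passed as lower (limma adjusted p = 0.00964). The rho of CLDN7 with EPCAM across tumours was 0.166.

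Of 17 junction genes 4 were higher and 0 lower. DSC3, a desmosomal cadherin, had 4.83 FPKM in OSCA.8 and 6.02 FPKM in OSCA.78, against a tumour median of 0.229 and a highest tumour of 2.08 (2.21 ± 0.33 SE, limma adjusted p = 1.7e-05). PERP, a desmosome protein, had 14.1 and 6.14 FPKM in OSCA.8 and OSCA.78, against a highest tumour of 2.996 (2.62 ± 0.42 SE, limma adjusted p = 4.5e-05). Both calls held with either line alone.

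LSR, a protein of tricellular junctions, had 0.703 FPKM in OSCA.8 and 53.3 FPKM in OSCA.78, against a tumour median of 0.960 and 22.7 FPKM in DOS.78, the highest tumour. Its difference of 2.18 ± 0.69 SE (limma adjusted p = 0.0277) turned to -0.32 without OSCA.78 (limma adjusted p = 0.902). PARD6B, a protein of cell polarity, was higher by 1.49 ± 0.43 SE (limma adjusted p = 0.0158) and did not pass with either line alone. The desmosomal genes DSP (1.78, limma adjusted p = 0.0781) and DSG2 (0.90, limma adjusted p = 0.460) did not pass.

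Of the keratins, the filament proteins that define epithelia, those in the table were nearly absent from most tumours. They were 7 of 15 names, so the other keratins could not be judged. Of the 7, 6 were under 1 FPKM in every primary tumour. KRT13 was the exception at 39.8 FPKM in DOS.57, the tumour lowest in ESRP1, with a tumour median of 0.0277. KRT80 stood at 1.45 FPKM in OSCA.8, 0.611 FPKM in OSCA.78 and 1.69 FPKM in the osteoblast culture, against a highest tumour of 0.348. It passed the looser filter only through OSCA.8 and that culture, so no test is given for it. KRT15, which passed neither filter, stood at 0.613 FPKM in OSCA.8 and 1.88 FPKM in OSCA.78, against a highest tumour of 0.391.

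Of 5 epithelial transcription factors past the filter 2 were higher and 0 lower. OVOL2, a repressor of mesenchymal genes, had 3.09 FPKM in OSCA.8 and 4.60 FPKM in OSCA.78, against a tumour median of 0.274 (1.68 ± 0.40 SE, limma adjusted p = 0.00350). KLF5, a factor of basal and gut epithelia, passed as well (1.94, limma adjusted p = 0.0392). The osteoblast culture held 8.32 FPKM of KLF5, against a tumour median of 1.99, and 0.206 FPKM of OVOL2. Without OSCA.78 neither passed (limma adjusted p = 0.206 at 1.46 for OVOL2 and 0.285 at 2.17 for KLF5), and without OSCA.8 KLF5 did not (0.223 at 1.71). The pioneer factor FOXA1, past the looser filter alone, stood at 1.33 FPKM in OSCA.8 and 1.85 FPKM in OSCA.78, against a highest tumour of 1.67 (DOS.111). GRHL2, known as an activator of epithelial genes, was also past the looser filter alone. It had 0.165 and 0.259 FPKM in OSCA.8 and OSCA.78, against a tumour median of 0.0606 and a highest tumour of 2.08, and did not pass (0.05, limma adjusted p = 0.902).

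Of 16 trafficking and surface genes 3 were higher and 1 lower. ERBB3, a receptor of the EGF receptor family, had 5.80 FPKM in OSCA.8 and 16.5 FPKM in OSCA.78, against a highest tumour of 2.14 (2.80 ± 0.33 SE, limma adjusted p = 3.8e-07), and passed with either line alone. The collagen receptor DDR1 was higher (1.75, limma adjusted p = 0.00634) and did not pass without OSCA.78 (difference 0.94). It had 14.1 FPKM in OSCA.8 and 45.7 FPKM in OSCA.78, against a highest tumour of 16.9. The osteoblast culture, where EPCAM was low, held 34.6 FPKM of DDR1 and 0.0896 FPKM of ERBB3. The motor protein MYO5B, past the looser filter alone, stood at 2.91 FPKM in OSCA.8 and 2.51 FPKM in OSCA.78, against a highest tumour of 2.44 (DOS.84). GALNT3, a glycosylation enzyme, was lower (-2.04, limma adjusted p = 0.0373) and passed with neither line alone.

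ESRP2, the paralogue of ESRP1, did not follow it into the lines. It had 0.107 FPKM in OSCA.8 and 0.395 FPKM in OSCA.78, against a tumour median of 0.256 and a highest tumour of 0.560, under the filter throughout. Of the 8 splicing regulators past the filter MBNL1, a splicing factor of muscle and other tissues, was lower (-1.48 ± 0.39 SE, limma adjusted p = 0.00890, and 0.426 without OSCA.78) and 0 were higher. Of 11 genes with exons known to be set by the ESRP proteins, ARHGEF11 was lower (-1.23 ± 0.44 SE, limma adjusted p = 0.0495) and the call ended with either line left out. With DOS.32 and DOS.100 as 1 tumour its limma adjusted p was 0.0548, and with both alike pairs merged it was 0.0591. CD44 did not pass (0.24, limma adjusted p = 0.802). These values are per gene and do not show which exons were used.

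Of 8 transcription factors that drive the change from epithelial to mesenchymal cells 3 were lower in the lines and 0 higher. SNAI1 had 2.49 FPKM in OSCA.8 and 1.67 FPKM in OSCA.78, against a lowest tumour of 14.2 and a median of 33.6 (-3.63 ± 0.55 SE, limma adjusted p = 1.9e-05). ZEB2 had 3.83 and 3.01 FPKM in OSCA.8 and OSCA.78, against a lowest tumour of 8.58 (-2.58 ± 0.44 SE, limma adjusted p = 1.1e-04). ZEB1 was lower by a smaller amount (-1.38 ± 0.37 SE, limma adjusted p = 0.00922) and did not pass without OSCA.78 (0.556 at -0.77).

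SNAI1 and ZEB2 passed with either line alone. In the metastasis, which like the lines lay above every tumour for EPCAM, SNAI1 stood at 74.7 FPKM, ZEB2 at 17.6 and ZEB1 at 12.1, inside the range of the tumours for each. SNAI2 (-0.12, limma adjusted p = 0.884), PRRX1 (-0.34, limma adjusted p = 0.705) and TWIST2 (2.195, limma adjusted p = 0.0797) did not pass. Across tumours ZEB1 and ZEB2 had rho values of 0.0256 and 0.0700 with EPCAM and -0.109 and 0.183 with ESRP1. SNAI1 had -0.123 with EPCAM and 0.0261 with ESRP1. PRRX1 had -0.520 with EPCAM and -0.301 with ESRP1, the lowest of the 8 factors for each. The lowest 1% of all genes ended at -0.476 for EPCAM and -0.491 for ESRP1.

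Vimentin VIM, the intermediate filament of mesenchymal cells, did not pass in the lines. It had 1791 FPKM in OSCA.8 and 731 FPKM in OSCA.78, against 616 to 2486 FPKM in tumours (-0.21 ± 0.42 SE, limma adjusted p = 0.768), and the difference was 0.44 without OSCA.78. Of 9 mesenchymal markers 2 were lower and 0 were higher, 7 had a difference under 0, and the median difference was -1.23. The matrix gene POSTN differed by -5.50 ± 1.59 SE (limma adjusted p = 0.0166), and FAP, a protease of fibroblasts, differed by -3.14 ± 0.60 SE (limma adjusted p = 4.4e-04). For FAP both lines lay under every tumour, at 9.12 FPKM in OSCA.8 and 0.334 FPKM in OSCA.78. For POSTN OSCA.78 did so at 1.34 FPKM, whereas OSCA.8 lay inside the tumour range at 19.7 FPKM. The osteoblast culture, where EPCAM was low, lay under every tumour for both genes. It held 2.47 FPKM of POSTN and 1.21 FPKM of FAP, against lowest tumours of 7.82 and 9.98.

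**Figure D4:**
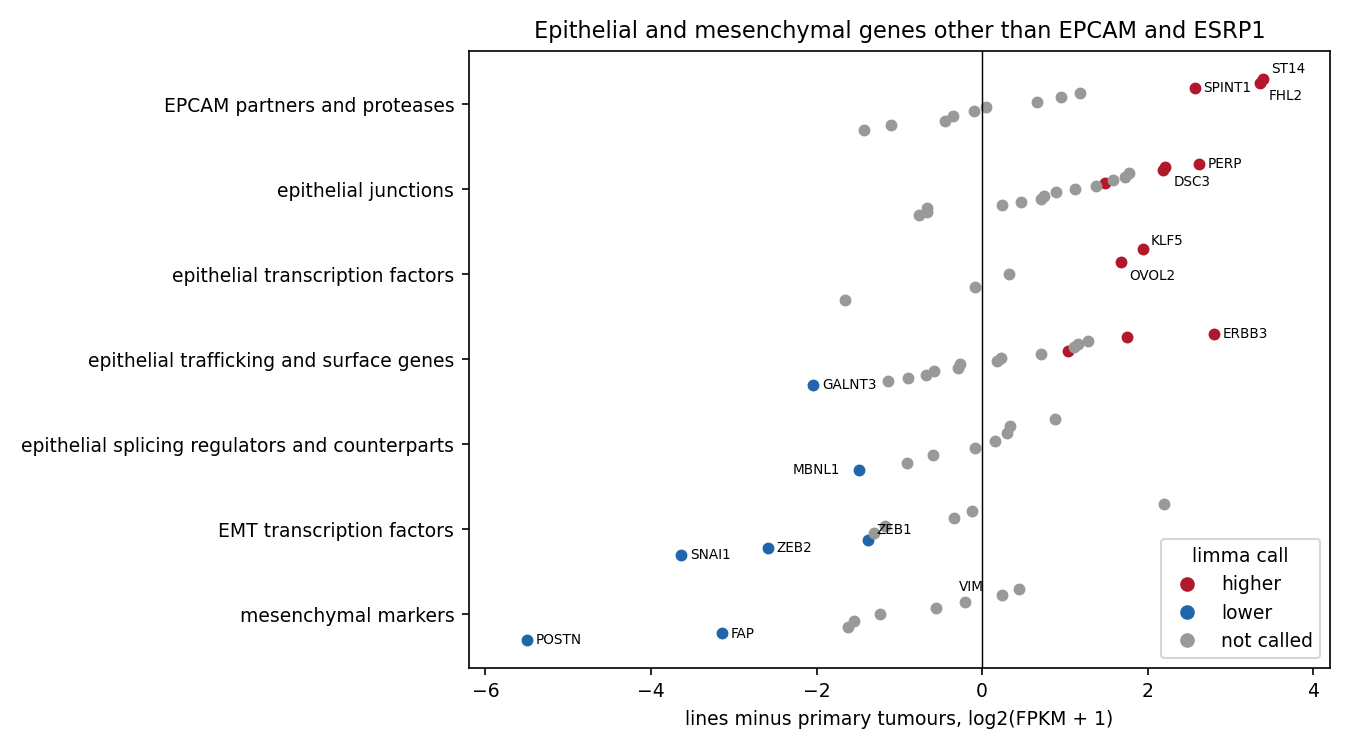
Each point is 1 gene of 7 lists, at 1 FPKM or more in at least 5 tumours, and its difference between lines and primary tumours on the log2(FPKM + 1) scale, coloured by the limma call over 15165 genes. Calls to the right are in the epithelial lists (ST14, FHL2, ERBB3) and calls to the left are mainly in the mesenchymal ones (SNAI1 at -3.63, ZEB2 at -2.58); GALNT3 and MBNL1 are also to the left.

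Among the tumours the other epithelial genes tracked EPCAM and ESRP1 to unequal degrees. Over the 50 with enough signal the median rho was 0.152 with EPCAM, where 38 were above 0, and 0.194 with ESRP1, where 33 were above 0. Of the 11132 genes with a symbol under that filter 5458 were above 0 with EPCAM and 5670 with ESRP1. A rho over 0.4 with both genes was found for 11 of the 50, beside 2.65% of the 11132, as a description. Of these 11, 5 (DSC3, DDR1, PARD6B, OVOL2 and ERBB3) were also higher in the lines, beside 12 of the 50 and 8.43% of the 11132. The share higher among all genes with such a rho was not computed, so this count is a description too. DSC3 had rho values of 0.533 and 0.673 with EPCAM and ESRP1, and OVOL2 0.576 and 0.564. By contrast ST14, with one of the largest differences in the lines, had 0.148 and 0.199, and its highest tumour value was in DOS.70, which held 0.0849 FPKM of EPCAM. DSG2, not called in the lines, had 0.592 and 0.544.

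Whole lists were set against the genes as scores, the mean z-score of a list's members over the tumours, in 40 pairs of 20 lists with EPCAM or ESRP1. After adjustment over the pairs 1 passed, the score of epithelial transcription factors with ESRP1 (rho 0.633, permutation p 3.5e-04, adjusted p = 0.0140, n = 29). Pearson's r for it was 0.446 (adjusted permutation p = 0.179), and without the 2 tumours farthest in ESRP1 rho was 0.658 and r was 0.556. The same score with EPCAM had a rho of 0.464 and r of 0.404 (adjusted permutation p = 0.112 and 0.179). Junction genes had rho values of 0.498 with EPCAM and 0.485 with ESRP1 (adjusted permutation p = 0.112 each). At an unadjusted p under 0.05, 7 pairs passed.

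Scores of other cell types did not pass on these values. Mesothelial genes had rho values of 0.317 with EPCAM and 0.385 with ESRP1 (adjusted permutation p = 0.342 and 0.264), and lung epithelial genes 0.262 and 0.351 (0.411 and 0.313). Scores of T cells (-0.390, adjusted permutation p = 0.264) and of B and plasma cells (-0.370, 0.274) were lowest with ESRP1. EPCAM had -0.0153 with T cells and -0.257 with B and plasma cells. Langerhans and dendritic cells had -0.0970 with EPCAM and -0.327 with ESRP1 (adjusted permutation p = 0.901 and 0.342). After quantile normalisation the rho of that score with ESRP1 was -0.581 and passed (adjusted permutation p = 0.0230). Bone matrix, cartilage, macrophage, endothelial, erythroid, skeletal muscle and cell cycle scores lay between -0.248 and 0.285, with adjusted permutation p of 0.404 or more.

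**Figure D5:**
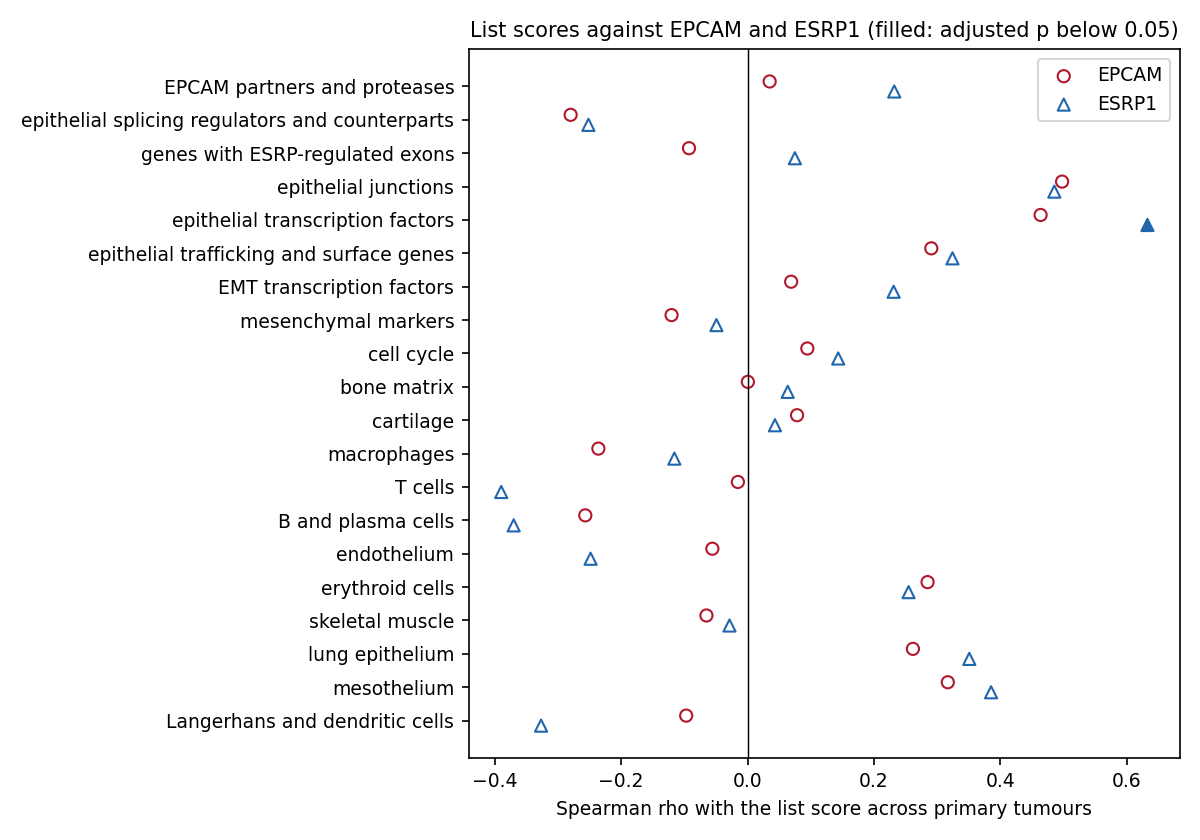
Spearman's rho across the 29 primary tumours between EPCAM (circles) or ESRP1 (triangles) and the score of each of 20 gene lists, filled where the permutation p adjusted over 40 pairs was below 0.05. The filled symbol is ESRP1 with epithelial transcription factors at 0.633, and junction genes have the highest rho with EPCAM at 0.498.

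Markers of 2 epithelium-like cell types moved in the lines beside EPCAM, and their part in its levels was not tested. CALB2, the 1 mesothelial gene past the tumour filter and the gene of the calcium-binding protein calretinin, was higher. It had 12.7 FPKM in OSCA.8 and 29.4 FPKM in OSCA.78, against a tumour median of 0.279 and a highest tumour of 29.6 in DOS.11 (3.31 ± 0.96 SE, limma adjusted p = 0.0172), and 17.7 FPKM in the metastasis. Past the looser filter alone, WT1 stood at 1.16 FPKM in OSCA.8 and 1.399 FPKM in OSCA.78, against a highest tumour of 2.35, and UPK3B at 9.09 and 0.751 FPKM in OSCA.8 and OSCA.78, against a highest tumour of 7.81. CALB2 had rho values of 0.529 with EPCAM and 0.541 with ESRP1 across tumours. It passed with neither line alone.

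Of 5 lung epithelial genes 2 were higher in the lines, the lipid transporter ABCA3 (1.93, limma adjusted p = 0.00255) and the water channel AQP5 (2.03, limma adjusted p = 0.0436), and HOPX was lower (-2.45, limma adjusted p = 0.0327). Without OSCA.78 none of the 3 passed (limma adjusted p = 0.287, 0.330 and 0.296), and without OSCA.8 AQP5 and HOPX did not.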

How the data were processed

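RNA was measured in 34 dog libraries (total RNA, TruSeq RNA v2, Illumina HiSeq, per the labels). The deposited table names no unit, and the authors' values were taken as FPKM since Cufflinks 2.2.1 appears, with FastQC 0.11.2, TopHat2 2.0.13 and canFam3, in the submitters' processing notes. The authors called this table masked, with no account here of which features or reads that removed. The order of steps, annotation, parameters and any scaling between libraries were, in the sources used here, not given. No read counts were used, so depth is unknown and no counting intervals were computed.

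A gene was kept if 2 or more libraries reached 1 FPKM (15165 genes), and log2 was taken after adding 1 FPKM. DOS.46 and DOS.46.2 were averaged. The 2 lines were compared with 29 primary tumours in limma 3.58.1 under R 4.3.3 (two-sided, with trend and robust set), p-values were adjusted by Benjamini-Hochberg over these genes, and the threshold was 0.05. Correlations used 100000 permutations (Python 3.11.15, scipy 1.17.1, numpy 2.4.6, pandas 2.3.3). Scripts were tested on simulated data. Gene order came from a RefSeq table in which 13096 symbols were found. Another 9653 rows carry an identifier with no symbol.

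EPCAM and ESRP1, the gene lists and the tests were chosen with earlier results of these data known. Named genes are those with the 10 highest, 5 lowest or 5 highest mean rho, up to 4 called members of each list (the 2 smallest adjusted p where none was called) and a few epithelial and mesenchymal genes named beforehand; 1 gene under this rule is not reported here by name, and lists of blood, vessel, bone, muscle and cycling cells are given as scores only. SNAI2, PRRX1, TWIST2, PSEN2, DSP, DSG2 and CD44 were named after their values were seen, as were KRT13 and KRT15. Alternatives were another pseudocount, scaling, filter and correlation measure, a replicate block, leaving out each line, and merging alike tumour libraries, the last chosen after seeing the data.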

Additional observations from a re-analysis of the deposited data

How the results depend on the processing

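The correlation of EPCAM with ESRP1 kept its direction and stayed past the threshold with Pearson's r, a pseudocount of 0.1, upper quartile scaling, quantile normalisation, separate repeat libraries and merged alike libraries (0.668 to 0.728), and lay between 0.700 and 0.781 with each tumour left out; given the number of genes above 0 it was 0.639, with no test. The difference of EPCAM was 4.41 with a pseudocount of 0.1 and that of ESRP1 3.46. With 1 line left out EPCAM's lay between 2.13 and 4.66 and ESRP1's between 1.34 and 3.16, and the count of genes called between 344 and 1998. The cause was not tested, except that a single line leaves a wider error. Among 30 primary tumour libraries OSCA.8 was most like DOS.8 (r of deviations 0.301), DOS.6M was most like DOS.6 (0.514) and OSCA.78 ranked DOS.78 second (0.243) after DOS.116 (0.305), a hint from the data, since no label says that a number marks a shared animal. With the number as a replicate block the differences were 2.79 for EPCAM and 0.65 for ESRP1, and limma called 0 genes (3164 at an unadjusted p under 0.05; the block leaves few samples to estimate the error), so that of the 50 epithelial genes 0 were higher and 0 lower (median 0.46). Score pairs past the threshold were 0 with Pearson's r or a pseudocount of 0.1 (8 unadjusted each by permutation), 3 after upper quartile scaling and 2 after quantile normalisation. Of the 20 places among the highest correlations 10 were kept with no filter and 9 with Pearson's r. The genes then on the lists that limma called in the lines numbered 2 after upper quartile scaling, 2 with either merging of alike libraries, 4 with no filter and 3 with Pearson's r. After quantile normalisation it was 0 (of the main 20 places limma called 1, and 7 at an unadjusted p under 0.05, as were 4486 of all 15183 genes). Signs turned without OSCA.78 for LSR (-0.32, and 4.68 without OSCA.8), VIM (0.44 and -0.85) and GRHL2 (-0.0022 and 0.11), and under the block for LSR (-0.053), VIM (0.0013) and BCHE (-2.16). Under the block 28 other differences of named genes no longer passed. Low levels in tumours, mostly near 1 FPKM or under it, and the unknown depth limit what can be said of EPCAM and ESRP1 in single tumours.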
